A study of Mus musculus with 4 samples.

Results

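The aryl hydrocarbon receptor and 5 genes that work with it or under it, Ahr, Arnt, Ahrr, Cyp1a1, Tiparp and Nqo1, were followed through single cells of the mouse small intestine. The 6 genes were taken by symbol from the 32285 gene rows of a 10x Genomics droplet count matrix, and all 6 had UMIs (unique molecular identifiers, each standing for 1 captured transcript). C57BL/6J males were given a high-fat diet with l-NAME from 8 weeks of age for 7 weeks, either alone (con, 2 samples) or with 562.5 mg of 3-indolepropionic acid (IPA) per kg of diet (IPA, 2 samples). Every animal, con included, therefore received the fat diet together with l-NAME, which blocks nitric oxide synthesis, and each sample pooled 2 mice. Cells released from the epithelial layer of ileum and jejunum were sorted as live (DAPI-) cells, so both epithelial and intraepithelial immune cells were present. The matrix separates 4 libraries by a number at the end of each barcode, and that number is not tied to a sample label, so the diets cannot be compared here. Each library is described by its barcode number, 1 to 4, and no library is assigned to con or IPA.

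The aryl hydrocarbon receptor is a ligand-activated transcription factor of the bHLH-PAS family. It waits in the cytoplasm in a chaperone complex, binds planar aromatic ligands that include pollutants, plant indoles and tryptophan metabolites of gut bacteria, enters the nucleus and pairs with ARNT to bind DNA. Cyp1a1, a cytochrome P450 that oxidizes many of those ligands, is its best known target, and Tiparp (an ADP-ribosyltransferase) and Ahrr (the receptor's repressor) are targets that restrain it. Nqo1, a quinone reductase, answers both to this receptor and to the oxidative stress factor NRF2. In the intestine the receptor is known for its part in barrier maintenance and in keeping intraepithelial lymphocytes and innate lymphoid cells.

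The data divided the 6 genes by cell type. As a share of UMIs, Ahr was low in enterocytes and several times higher in T cells and dendritic cells. Ahrr was found mainly in immune cells, Cyp1a1 almost wholly in enterocytes and there mainly in libraries 1 and 2, and Nqo1 in enterocytes towards the villus base. Tiparp and Arnt had UMIs in every class of at least 20 cells.

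In the RefSeq annotation of GRCm38.p6, the assembly that mm10 stands for, Ahr lies on chromosome 12 from 35497979 to 35534989, Arnt on chromosome 3 from 95434367 to 95497240, Ahrr on chromosome 13 from 74211118 to 74292331, Cyp1a1 on chromosome 9 from 57687928 to 57703824, Tiparp on chromosome 3 from 65528447 to 65555518 and Nqo1 on chromosome 8 from 107388225 to 107403205. A promoter entry was matched for 5 of the 6 genes in the RefSeq promoter table, all but Ahr. The 250 bases before the start that the table gives for each of the 4 target genes are shown because these genes, though all known targets of 1 receptor, differed in where they were expressed. Capitals mark GCGTG, the core of the xenobiotic response element that the receptor and ARNT bind, or its reverse complement CACGC. The windows are Cyp1a1 at chr9:57697363-57697612 (plus strand), Ahrr at chr13:74292332-74292581 (minus strand), Tiparp at chr3:65528197-65528446 (plus strand) and Nqo1 at chr8:107403206-107403455 (minus strand). The Cyp1a1 window lies inside the annotated span of the gene, since the start in the table is downstream of the first base of that span.
Cyp1a1: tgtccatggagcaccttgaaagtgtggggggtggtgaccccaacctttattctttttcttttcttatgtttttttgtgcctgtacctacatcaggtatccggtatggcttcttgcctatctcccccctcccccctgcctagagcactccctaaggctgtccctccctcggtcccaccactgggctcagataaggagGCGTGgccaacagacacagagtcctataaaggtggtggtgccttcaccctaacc
Ahrr: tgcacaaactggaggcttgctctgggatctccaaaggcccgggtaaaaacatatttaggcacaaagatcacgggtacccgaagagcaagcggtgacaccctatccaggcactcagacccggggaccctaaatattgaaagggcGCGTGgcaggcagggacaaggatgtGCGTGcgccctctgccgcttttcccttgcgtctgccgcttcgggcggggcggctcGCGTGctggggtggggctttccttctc
Tiparp: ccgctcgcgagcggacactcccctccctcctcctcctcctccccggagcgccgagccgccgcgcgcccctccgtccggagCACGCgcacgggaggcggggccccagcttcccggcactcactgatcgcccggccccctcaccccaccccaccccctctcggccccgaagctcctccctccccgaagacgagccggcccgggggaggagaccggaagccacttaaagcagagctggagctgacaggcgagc
Nqo1: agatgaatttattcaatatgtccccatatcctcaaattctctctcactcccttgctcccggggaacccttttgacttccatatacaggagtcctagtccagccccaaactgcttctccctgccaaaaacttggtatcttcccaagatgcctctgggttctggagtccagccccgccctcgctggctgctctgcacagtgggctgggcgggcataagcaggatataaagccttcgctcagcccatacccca
The Ahrr window held 3 copies of the core, Cyp1a1 and Tiparp 1 each and Nqo1 0. The window of Arnt, the partner and not a listed target, is not shown and also held 1. Of the 27025 promoters in the table, 28.2% held at least 1 copy in the same 250 bases on either strand, and 2.80% held 3 or more. A match is a string of letters and not a binding site, and its lack in a window says nothing of elements farther away, which Cyp1a1 and Nqo1 are known to have.

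Of 44277 barcodes, 25788 passed the filter of at least 500 UMIs, at least 250 genes and at most 25% mitochondrial UMIs, between 6174 and 7122 per library, and 18386 of the 18489 that failed did so for mitochondrial UMIs. Kept cells held a median of 22601 to 27622 UMIs per library, and 214 barcode sequences occurred in more than 1 library. Marker genes placed 24735 cells in classes named for what they resemble, 22881 of them epithelial. Immune cells were spread unevenly, with 457, 13, 1368 and 16 in libraries 1 to 4, so immune values come from libraries 1 and 3. Levels are given as CPM, the summed UMIs of a gene in a class scaled to 1000000 UMIs of that class, with a 95% exact Poisson interval that covers counting error only, not differences between mice. Gzma, a T cell protease, stood at 23030 and 18827 CPM in T-like cells of libraries 1 and 3. Enterocyte-like cells had 5.19 and 40.3 CPM of it in those libraries and 0.030 and 0.022 CPM in libraries 2 and 4, and the part of such lymphocyte UMIs in other values was not tested. With 1 library per value there is no replicate, and no test between libraries was made.

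The receptor itself, Ahr, was detected throughout the epithelium at a low level. In enterocyte-like cells it stood at 10.4, 8.47, 9.75 and 7.68 CPM in libraries 1, 2, 3 and 4, from 914 to 1259 UMIs each. The highest level was 1.35-fold the lowest. Libraries 2 and 4, which held 13 and 16 immune cells, had the lower values, and whether the 2 are linked was not tested. Cycling-like cells of the crypt were slightly higher, at 12.5 to 14.1 CPM over the 4 libraries. Goblet-like cells, the mucus makers, were lower at 3.47, 4.07, 5.53 and 4.33 CPM, and their intervals lay below those of enterocyte-like cells in libraries 1, 2 and 3 but overlapped in library 4. Stem-like cells had 9.56 to 12.3 CPM, with intervals that overlapped those of enterocyte-like and cycling-like cells in every library.

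Lymphocytes and dendritic cells carried far more Ahr per UMI. T-like cells had 65.1 CPM (95% interval 51.7 to 80.9, 81 UMIs in 301 cells) in library 1 and 110 CPM (101 to 120, 520 UMIs in 1133 cells) in library 3. These levels were 6.27-fold and 11.3-fold those of enterocyte-like cells of the same library. As background, 23.0% of the 8982 genes compared were at least 4-fold higher in T-like cells in both libraries, so a difference of this size was common between these cell types. At an equal depth of 2000 UMIs per cell, 11.5% and 18.5% of T-like cells had an Ahr UMI, against 2.24% and 1.89% of enterocyte-like cells; without thinning the shares were 21.3% and 32.3% against 21.8% and 21.3%, at median depths of 3659 and 3857 against 28581 and 30628 UMIs. The shares before thinning were compared at unequal depth, so only the thinned ones are set against each other.

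Among immune classes of at least 20 cells, dendritic-like cells of library 3, led by Siglech, Cd209a and Clec9a, had the highest Ahr, 246 CPM (209 to 288, 157 UMIs in 57 cells). Macrophage-like cells of library 1 had 86.4 CPM (49.4 to 140, 16 UMIs in 26 cells), an interval that takes in both T cell values. B-like cells stood at 33.9 CPM in each of libraries 1 and 3, from 3 and 13 UMIs. Antibody-secreting plasma-like cells had only 3.57 and 1.01 CPM. T cell subsets did not part clearly: in library 3 γδ T cells (Trdc-positive) had 106 CPM, cells with Cd8a alone 106, cells with Cd8a and Cd8b1 132 and Cd4 cells 154 (interval 101 to 226), and in library 1 the subsets of 20 or more cells ran from 49.4 to 83.8 CPM. With the class thresholds doubled, dendritic-like cells had 163 CPM of Ahr and B-like cells of library 1 13.1 CPM, so these small classes depend on how they were drawn.

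**Figure D1:**
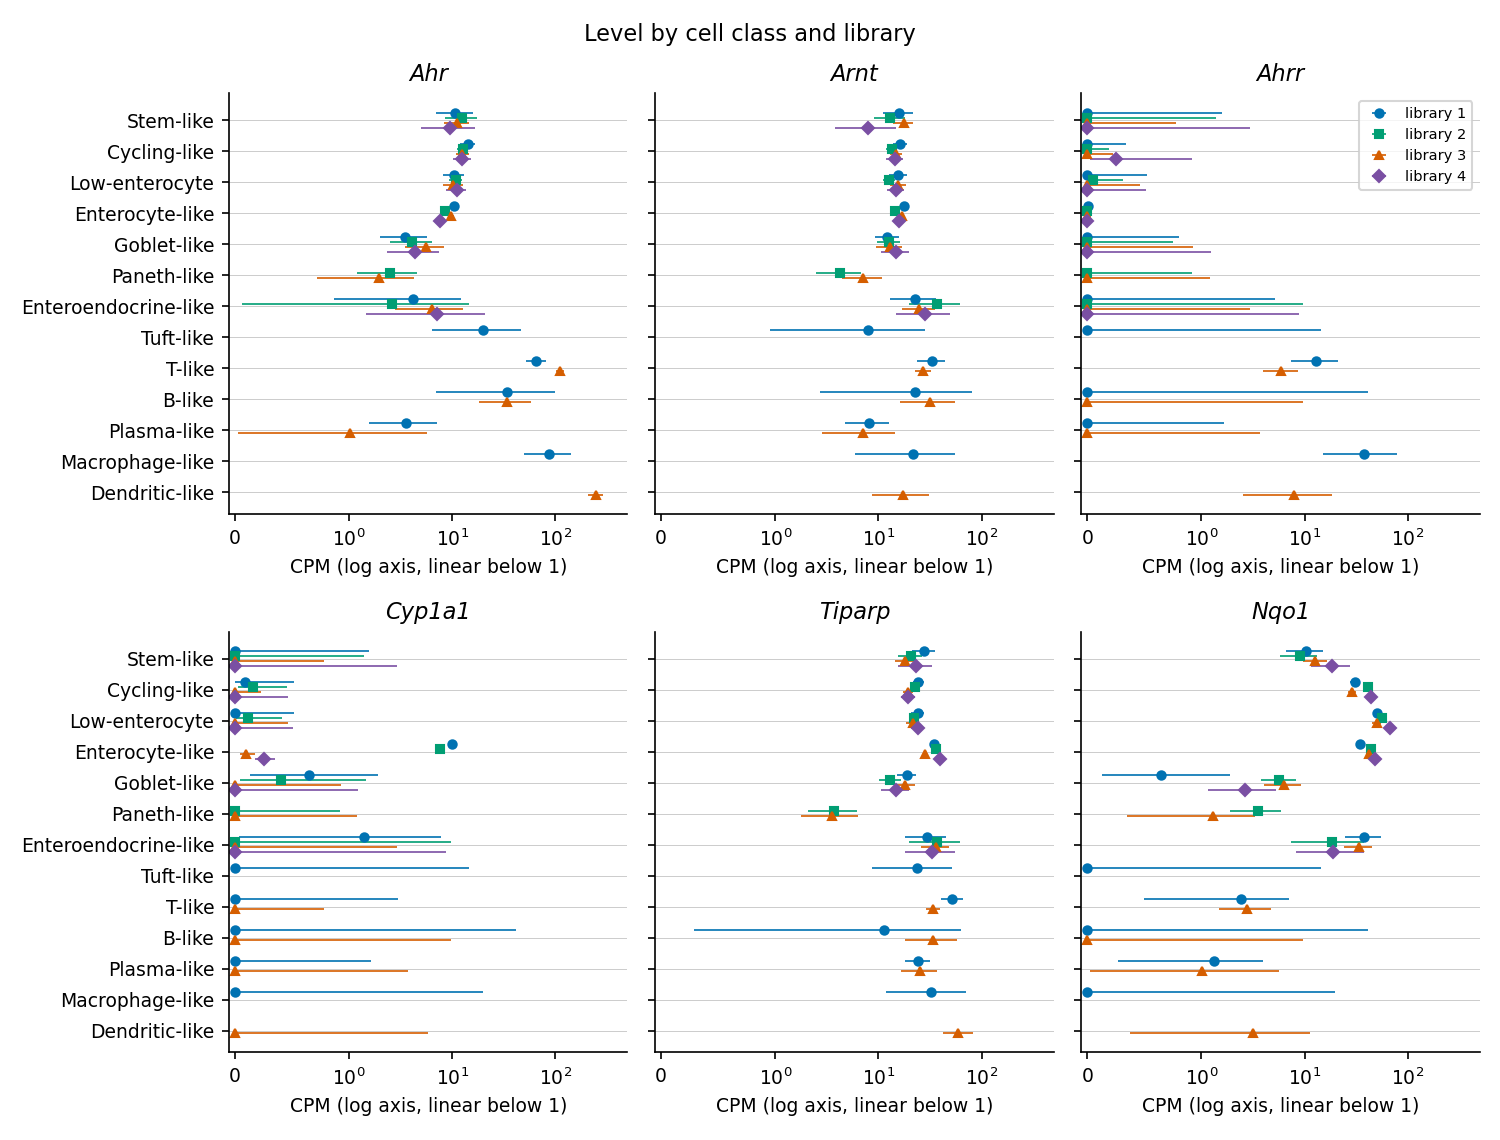
Level of each gene (CPM, log axis that is linear below 1) in cell classes of at least 20 cells, one point per library with its 95% exact Poisson interval. Ahr and Ahrr points lie highest in T-like, macrophage-like and dendritic-like cells, Cyp1a1 in enterocyte-like cells of libraries 1 and 2, and Nqo1 in the enterocyte and cycling classes.

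Arnt, the partner that the receptor shares with the hypoxia factors, was found in all epithelial classes. Its enterocyte levels were 17.7, 14.5, 16.9 and 15.7 CPM in libraries 1 to 4, a range of 1.22-fold. Goblet-like cells (12.1 to 14.7 CPM) and cycling-like cells (13.5 to 16.3 CPM) were close to that. T-like cells had 32.9 and 27.3 CPM, which is 1.86-fold and 1.62-fold the enterocyte level, and enteroendocrine-like cells, which secrete gut hormones, had 22.4 to 36.6 CPM. Paneth-like cells had 4.25 and 7.14 CPM in libraries 2 and 3, and plasma-like cells 8.03 and 7.09 CPM in libraries 1 and 3.

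Ahrr, the repressor, was nearly absent from the epithelium. Only 74 UMIs in 65 kept cells were found in all, 29, 1, 41 and 3 in libraries 1 to 4. T-like cells held 16 UMIs (12.9 CPM, 7.35 to 20.9) in library 1 and 28 (5.92 CPM, 3.93 to 8.56) in library 3, and dendritic-like cells of library 3 held 5 (7.84 CPM). Macrophage-like cells of library 1 held 7 UMIs, or 37.8 CPM (15.2 to 77.9), the highest level in any class of 20 or more cells. The 4759 enterocyte-like cells of library 1 held 1 UMI, and those of libraries 2, 3 and 4 held 0, which allows at most 0.0222, 0.0320 and 0.0223 CPM (3 counts). Ahr and Ahrr did not share an order over the libraries in T-like cells: Ahr was higher in library 3 and Ahrr in library 1, although the 2 Ahrr intervals overlap.

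Cyp1a1 differed widely between libraries in enterocyte-like cells. Enterocyte-like cells of libraries 1 to 4 held 1201, 1014, 9 and 34 UMIs, out of 4759, 4991, 3411 and 5335 cells. These are 9.90 (9.35 to 10.5), 7.51 (7.06 to 7.99), 0.0960 (0.0439 to 0.182) and 0.253 (0.175 to 0.354) CPM. Libraries 1 and 2 were high, libraries 3 and 4 were near 0, and the intervals of the high and the low libraries lay far apart. All 9 UMIs of library 3 came from 1 cell, and 21 of the 34 in library 4 from 1 cell; with the 6% of cells of the highest Scrublet doublet score left out, the values were 0 and 0.106 CPM. The highest level was 103-fold the lowest, a fold that rests on that 1 cell of library 3.

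Across the 10378 genes with a mean of at least 1 CPM in enterocyte-like cells, 6.12% had a highest level at least 2-fold the lowest and 0.472% at least 10-fold, and the median was 1.26-fold. Cyp1a1 ranked 17 by this fold, but passed the mean of 1 CPM only through libraries 1 and 2, where it was high. The 16 genes above it were named after their values were seen, and each was highest in library 3: the lymphocyte genes Gzma, Ccl5, Cd7, Rgs1, Cd3g, Gzmb, Nkg7, Cd52, Cd3e, Ptprc and Tyrobp, the immunoglobulin gene Ighm and the haemoglobin genes Hbb-bs, Hba-a1, Hba-a2 and Hbb-bt. Cyp1a1 was lowest in that library and had 0 UMIs in its T-like, B-like, macrophage-like and dendritic-like cells. The other genes with enough UMIs to compare, all but Ahrr, spread less, with 1.35-fold for Ahr, 1.22-fold for Arnt, 1.40-fold for Tiparp and 1.40-fold for Nqo1, and their order over the libraries was not that of Cyp1a1.

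**Figure D2:**
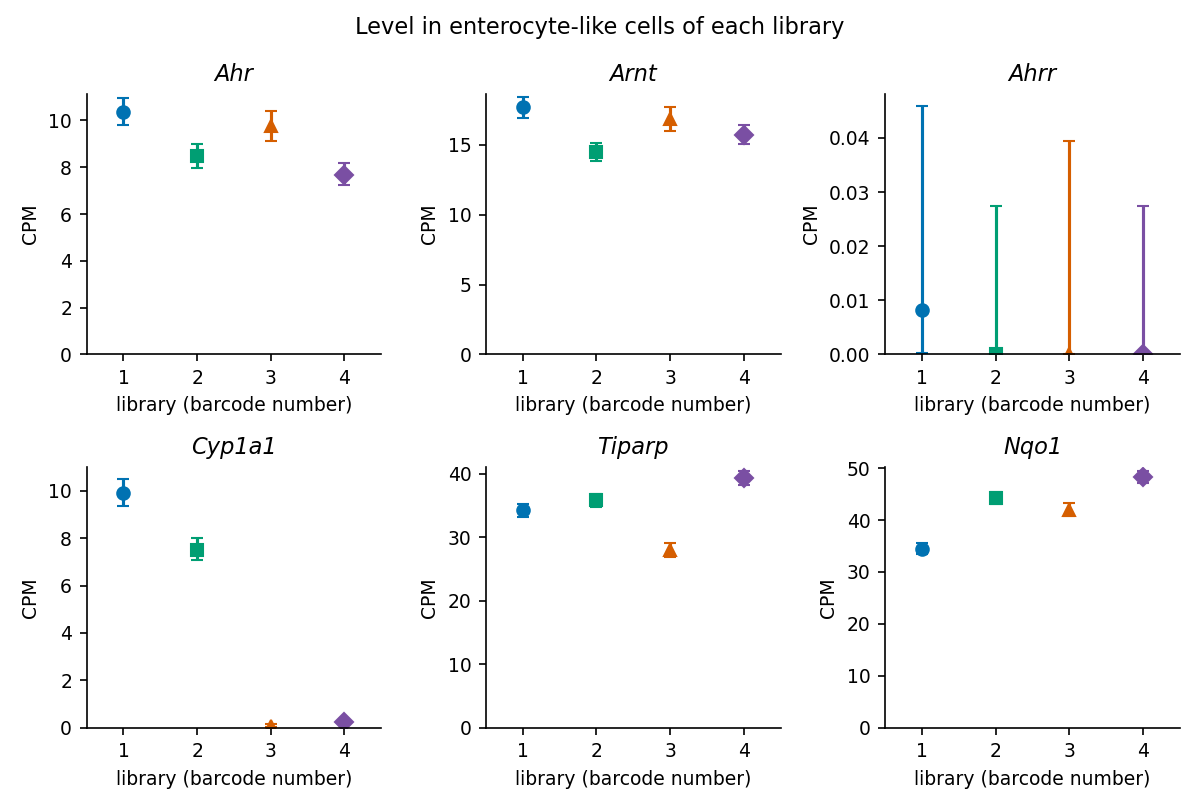
CPM of each gene in enterocyte-like cells of libraries 1 to 4, with 95% exact Poisson intervals, each panel on its own axis from 0. Cyp1a1 stands at 9.90 and 7.51 CPM in libraries 1 and 2 and at 0.0960 and 0.253 CPM in libraries 3 and 4, while Ahr, Arnt, Tiparp and Nqo1 stay within 1.40-fold.

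Within libraries 1 and 2, Cyp1a1 sat in a minority of enterocytes. A UMI was found in 433 cells of library 1 (9.10%) and 351 of library 2 (7.03%), against 1 and 8 cells in libraries 3 and 4. Among positive cells 197 and 150 had a single UMI, while 68 and 65 cells had 5 or more and held 47.5% and 50.5% of all Cyp1a1 UMIs of their library. The highest cells had 21 and 18 UMIs. Positive cells were somewhat deeper than negative ones, with medians of 32496 against 28005 UMIs in library 1 and 29763 against 28026.5 in library 2. No barcode sequence was positive in more than 1 library.

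**Figure D3:**
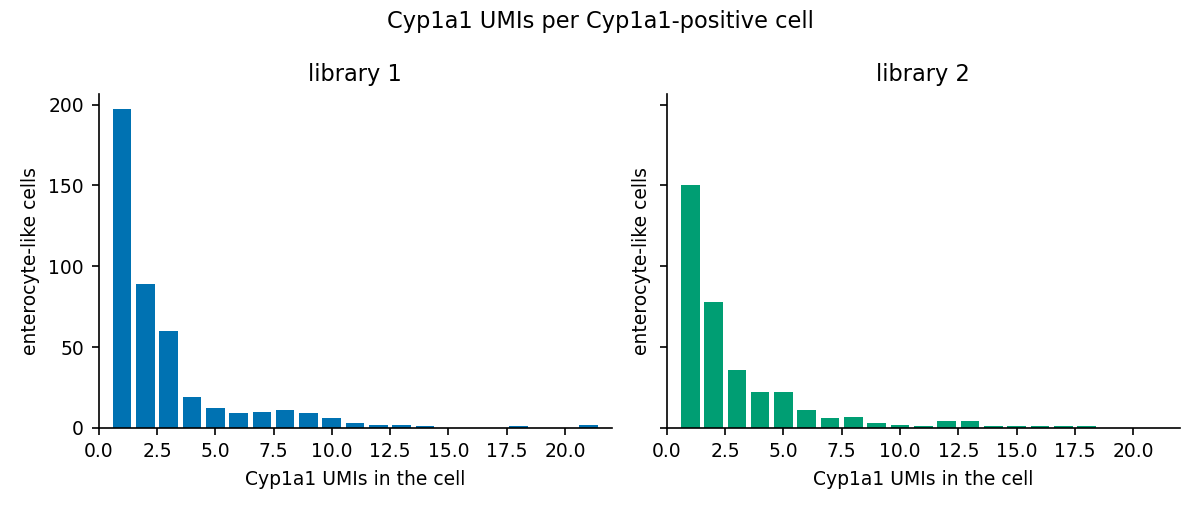
Number of enterocyte-like cells (vertical axis) by Cyp1a1 UMIs in the cell (horizontal axis) among Cyp1a1-positive cells of libraries 1 and 2. Single-UMI cells are the most frequent, 197 and 150, and a tail reaches 21 and 18 UMIs.

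Outside enterocytes Cyp1a1 was scarce. Goblet-like cells held 3 UMIs in library 1 and 2 in library 2, cycling-like cells 1 and 3, and cells of the class with low enterocyte marker rates (led by Fabp6 and Reg3b) 0 and 2. Stem-like and T-like cells held 0 in every library where they were counted. At 2000 UMIs per cell 1.76% and 1.34% of enterocyte-like cells of libraries 1 and 2 had a Cyp1a1 UMI. The share of T-like cells was 0% in libraries 1 and 3. Only library 1 allows the cell types to be set against each other. In library 3 just 1 of 3411 enterocyte-like cells held Cyp1a1, so a 0 in its T-like cells cannot tell them apart. For T-like cells of library 1 a count of 0 in 301 cells allows at most 2.41 CPM, and for stem-like cells of libraries 1 and 2 it allows 1.28 and 1.12 CPM, below the 9.90 and 7.51 CPM of enterocytes.

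In libraries 1 and 2 Cyp1a1 rose steeply from distal to proximal enterocytes. Enterocyte-like cells were ranked within each library by proximal genes (Gata4, Lct, Adh6a, Fabp1, Rbp2, Onecut2) minus distal genes (Fabp6, Slc51a, Slc51b, Slc10a2, Plb1, Naaladl1, Fgf15) and split into 5 equal bins. From the most distal to the most proximal bin, library 1 had 1.20, 4.97, 8.79, 12.5 and 18.6 CPM and library 2 had 0.657, 2.07, 5.28, 9.93 and 19.1 CPM. Both libraries rose at every step, by 15.5-fold and 29.0-fold from end to end. As background, 0.279% of 10378 genes rose at least 4-fold in both libraries, and by the smaller of the 2 folds only 1 gene, Gm3948, lay above Cyp1a1. Cyp1a1 passed the mean of 1 CPM for this set only through libraries 1 and 2, the same libraries that gave the folds. Genes of the score, such as Lct, were also in the set. The rank therefore describes those 2 libraries and is no support. In library 4 the 13 UMIs outside the single high cell lay in the 2 most proximal bins (5 and 8), and in library 3 those bins held 0. The high cell of library 4, with 21 UMIs, lay in the most distal bin when cells were split in 3. So did the 1 cell of library 3 that held all 9 of its UMIs, so most UMIs of these libraries did not follow the rise.

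The same gradient was weaker in the other genes. Tiparp was 1.32-, 1.41-, 1.33- and 1.72-fold higher in the most proximal than in the most distal bin of libraries 1 to 4, and Ahr 1.23-, 1.75-, 1.34- and 1.78-fold, where 3.89% of genes were at least 1.5-fold higher in all 4 libraries. Neither gene met that mark. Nqo1 was 1.18-, 1.37-, 2.64- and 1.70-fold higher, and its lowest bin in every library was the most distal. Fabp6, an ileal bile acid carrier used in the score, fell from between 4136 and 6552 CPM to between 12.3 and 14.5 CPM from the most distal to the most proximal bin, in libraries 3 and 4 as in libraries 1 and 2. Lct, also used in the score, varied along the villus too, so the 2 axes are not independent.

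**Figure D4:**
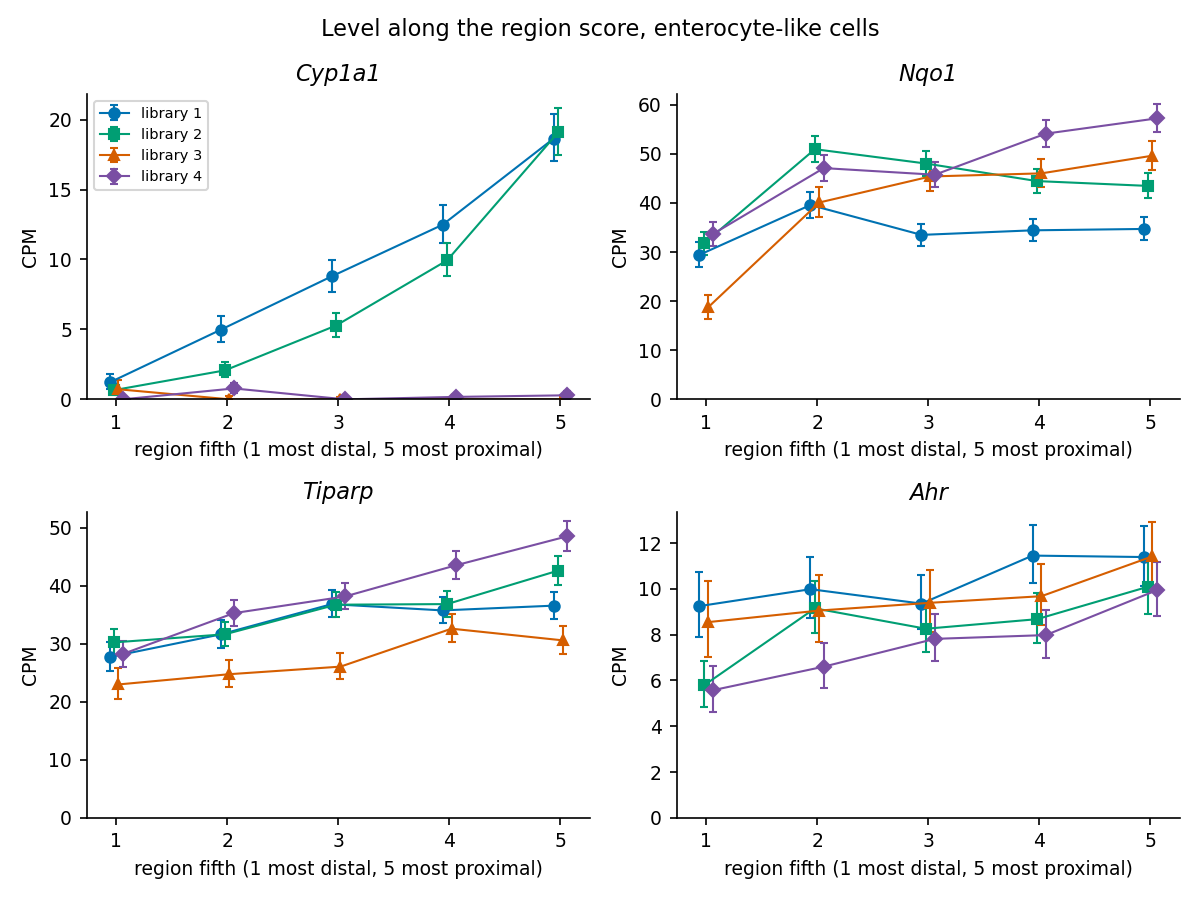
CPM of Cyp1a1, Nqo1, Tiparp and Ahr in 5 equal bins of enterocyte-like cells ranked by a proximal minus distal gene score (1 most distal, 5 most proximal), per library, with 95% exact Poisson intervals. Cyp1a1 rises from 1.20 to 18.6 CPM in library 1 and from 0.657 to 19.1 CPM in library 2 and stays under 1 CPM in libraries 3 and 4.

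Along the villus the 2 Cyp1a1-rich libraries differed in shape. Cells were ranked by villus tip genes (such as Ada and Apoa4) minus base genes (such as Reg3b and Reg3g) and split in 5 bins. Library 1 had 4.59, 12.4, 15.6, 8.93 and 7.33 CPM from base to tip, highest in the middle. Library 2 had 4.19, 5.27, 8.03, 10.5 and 12.4 CPM, highest at the tip. At an equal depth of 10000 UMIs, the share of cells with a Cyp1a1 UMI was 3.62%, 9.62% and 1.84% at the base, middle and tip of library 1 and 1.88%, 4.88% and 5.81% in library 2. Cells below that depth were left out, 516 of 951 at the tip and 14 of 952 at the base of library 1. In library 2 they were 275 of 998 and 41 of 999, so the tip shares describe the deeper tip cells only. The tip bin of library 2 carried less of the tip program, with 810 CPM of Ada against 3223 to 6342 in the other libraries, so the bins of the 2 libraries do not mark the same height. The base bin had the lowest CPM in both libraries. With another random draw of UMIs, chosen after seeing the data, the share at the tip of library 2 was 0.970-fold that of the middle, and without thinning 0.890-fold, so the order of those 2 bins was not settled.

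Nqo1 showed the clearest villus pattern, and it held in all 4 libraries. From base to tip it went from 51.8 to 6.17 CPM in the first library and from 57.7 to 22.8 in the second. In libraries 3 and 4 it went from 57.2 to 6.14 and from 60.7 to 20.2 CPM. The base level was 8.40-, 2.53-, 9.31- and 3.00-fold the tip level, and each bin was lower than the one before it. As background, 13.0% of the 6409 genes of at least 10 CPM fell at least 2-fold in every library, so this decline was shared with many genes. Tiparp varied much less, between 31.0 and 38.4 CPM over the bins of library 1 and between 33.7 and 44.5 in library 4, with the highest bin in the middle of the villus in each library. Arnt tip levels were 0.966- to 1.22-fold the base levels. None of Arnt, Tiparp and Nqo1, the genes of at least 10 CPM, was 2-fold higher at the tip in each library, as 6.40% of genes were.

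**Figure D5:**
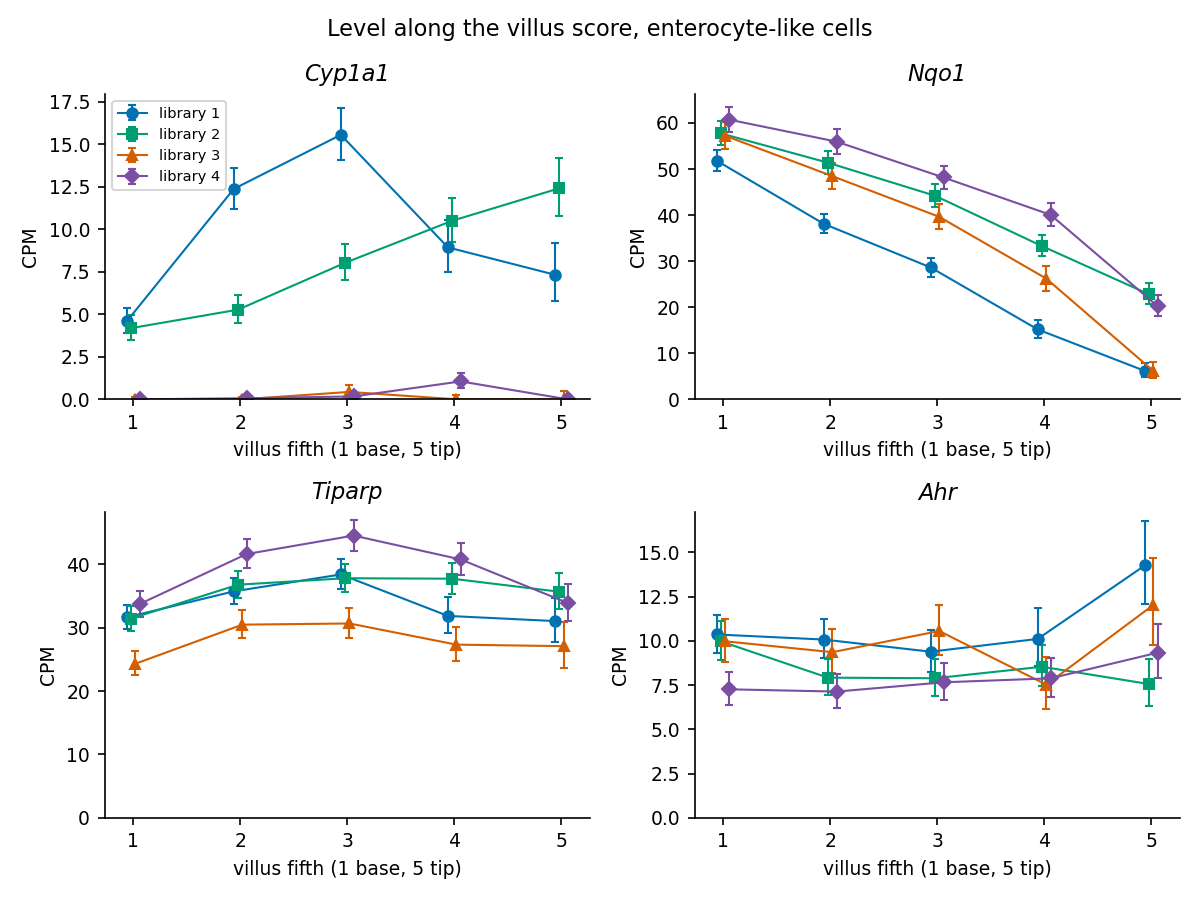
CPM of Cyp1a1, Nqo1, Tiparp and Ahr in 5 equal bins of enterocyte-like cells ranked by a villus tip minus base gene score, per library, with 95% exact Poisson intervals. Nqo1 declines from between 51.8 and 60.7 CPM at the base to between 6.14 and 22.8 CPM at the tip in the 4 libraries, and Cyp1a1 peaks in the middle bin in library 1 and at the tip in library 2.

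By class, Nqo1 was highest in cells of the absorptive lineage. Enterocyte-like cells had 34.5, 44.2, 42.0 and 48.2 CPM in libraries 1 to 4, and the class with low enterocyte marker rates had more, 50.8, 56.9, 50.3 and 67.5 CPM. Cycling-like cells had 28.9 to 44.4 CPM, while stem-like cells had 10.2, 8.96, 12.7 and 18.3 CPM. Goblet-like cells had only 0.650, 5.70, 6.28 and 2.66 CPM, and T-like cells 2.41 and 2.75 CPM from 3 and 13 UMIs. With classes taken from Leiden clusters, goblet-like cells had 4.92, 16.8, 15.6 and 9.51 CPM and stem-like cells of libraries 1 to 3 23.1, 23.3 and 19.1 CPM of Nqo1, so these low values depend on how the classes were drawn. The T-like level of library 3 was 15.3-fold below that of enterocytes, where 14.4% of genes were at least 4-fold lower in T-like cells of both libraries. A UMI of Nqo1 was found in 0.997% and 1.15% of T-like cells of libraries 1 and 3. Enterocyte-like cells of these libraries had shares of 43.3% and 51.0%. They were far deeper, so these shares, taken without thinning, are not set against each other.

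Tiparp, the ADP-ribosyltransferase that limits receptor signalling, did not share the library pattern of Cyp1a1. Enterocyte-like cells had 34.2, 35.8, 28.0 and 39.3 CPM, highest in library 4, where Cyp1a1 stood at 0.253 CPM. Cycling-like (19.3 to 24.4 CPM), stem-like (18.0 to 27.7 CPM) and goblet-like cells (13.0 to 18.9 CPM) were lower. T-like cells had 52.2 CPM in library 1 and 34.0 CPM in library 3, 1.53-fold and 1.22-fold the enterocyte level. Dendritic-like cells of library 3 had 59.6 CPM from 38 UMIs, but 3.47 CPM with the class thresholds doubled.

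Cyp1a1-positive enterocytes were then set against negative ones of the same library and villus bin, to see whether the other genes moved with Cyp1a1 inside a library. Ahr was 13.4 against 9.48 CPM in library 1 (177 UMIs, interval of the positive cells 11.5 to 15.6) and 12.2 against 7.95 CPM in library 2 (128 UMIs, 10.1 to 14.5), ratios of 1.42 and 1.53. Matched for region as well, the ratios were 1.34 and 1.41. As background, 0.708% of 7913 genes of at least 5 CPM were at least 1.3-fold higher in both libraries within villus bins, and 0.202% (16 genes, Ahr among them) within villus and region bins. The fold was chosen after these ratios were seen, and Ahr lies below the mean of 10 CPM planned for this comparison. Its place among the 16 genes follows from these choices and is no support. Tiparp had ratios of 1.04 and 1.14, Nqo1 1.06 and 1.11, and Arnt 0.990 and 0.932. Positive and negative cells come from the same pools of mice and the positive ones were deeper, so these ratios describe 2 libraries and carry no p-value.

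Larger differences between positive and negative cells were few and became smaller with region matched. Among 6409 genes of at least 10 CPM, 0.109% were at least 1.5-fold higher in positive cells of both libraries and 0.874% at least 1.5-fold lower, and with region matched the shares were 0.0312% and 0.109%. Reg1, H2-Q10, Sult6b2, Aqp8 and Aldoc led the higher genes, with ratios of 1.60 to 1.76 in library 1. Fam151a, Cd74, H2-Aa, Plb1 and H2-Eb1, which include 3 genes of the MHC class II pathway and the distal gene Plb1, led the lower ones, with ratios of 0.119 to 0.226 in library 1 that became 0.535 to 0.885 with region matched. Reg1 and Plb1 are themselves genes of the scores.

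Other genes of the pathway were counted in the same enterocyte-like cells. Of 17 further targets of the receptor, 9 reached 10 CPM in some class, 8 could be compared in enterocyte-like cells, and 1, the glutathione transferase Gsta2, differed at least 2-fold between libraries (6.36, 8.94, 11.9 and 13.7 CPM, lowest where Cyp1a1 was highest). The median fold of these 8 genes was 1.27, beside 1.26 over all genes compared, of which 6.12% differed at least 2-fold. Cyp1a2, the neighbour and paralogue of Cyp1a1, was picked out after its values were seen: enterocyte-like cells held 11, 14, 0 and 0 UMIs in libraries 1 to 4, and Cyp1a1-positive cells held 7 of the 11 and 7 of the 14. The 2 genes are similar in sequence, and whether the authors' counting could pass reads from one to the other was not tested. Cyp1b1 had 1 UMI in enterocyte-like cells of library 1 and 0 in the other libraries.

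The receptor's partners came next. All 13 listed genes of its chaperone complex, its bHLH-PAS relatives and its coregulators were measurable in enterocyte-like cells, and 1, Arnt2, differed at least 2-fold between libraries, at 1.47, 0.185, 1.29 and 1.06 CPM. Over all genes compared 6.12% differed at least 2-fold, and the median fold of the list was 1.44 beside 1.26. The chaperone gene Hsp90ab1 stood at 269, 438, 346 and 333 CPM. Epas1, which encodes a hypoxia factor that also pairs with ARNT, was 1.36- and 1.75-fold higher in Cyp1a1-positive cells of libraries 1 and 2. With region matched it was 1.19- and 1.46-fold higher. In each of these libraries its ratio was the highest of the 13 listed genes, so it does not stand for the list. Hif1a, the gene of the other listed hypoxia factor, had ratios of 1.02 and 1.04, and 0.993 and 0.961 with region matched.

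NRF2 target genes, which share control with Nqo1, were compared in the same way. Of 13 listed genes 11 could be compared in enterocyte-like cells, and 1, the glutathione peroxidase Gpx2, differed at least 2-fold, at 293, 520, 199 and 237 CPM. Their median fold was 1.37, beside 1.26 over all genes, of which 6.12% differed at least 2-fold. Gstm1, a glutathione transferase, had 54.0, 55.6, 94.6 and 104 CPM, and Me1, malic enzyme, 104, 92.3, 156 and 165 CPM. Both were lower in libraries 1 and 2, by less than 2-fold, as were Gclc, Gclm and G6pdx. Gpx2 and Gsr (76.0, 133, 68.4 and 73.4 CPM) were higher in libraries 1 and 2. Nfe2l2, Keap1, Txnrd1 and Srxn1 did not divide this way, so the list had no shared order. Nqo1 was lowest in library 1 and next to highest in library 2.

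Genes that make or break down tryptophan-derived ligands were listed next. Of 17 listed genes 15 reached 10 CPM in a class and 7 could be compared in enterocyte-like cells. Of these 7, 0 differed 2-fold between libraries (median 1.25-fold). Among all genes compared the share was 6.12% and the median 1.26-fold, so the list did not stand apart. Ido1, which opens the kynurenine route to endogenous ligands of the receptor, was a goblet cell gene here, at 533, 286, 556 and 154 CPM in goblet-like cells and at 0.156 to 1.09 CPM in enterocyte-like cells. Tph1, the serotonin synthesis enzyme, reached 1134 CPM in enteroendocrine-like cells of library 3. In dendritic-like cells of the same library Kmo, of the kynurenine route, stood at 163 CPM and the amino acid oxidase Il4i1 at 149 CPM.

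Among 12 lymphocyte genes linked to the receptor, 11 reached 10 CPM in a class and 3 could be compared in enterocyte-like cells. The 2 that differed at least 2-fold there were Gzma and Gzmb, for which T-like cells had 23030 and 3004 CPM in library 1. The median of the 3 folds was 261. In T-like cells of libraries 1 and 3, the residency integrin gene Itgae stood at 656 and 614 CPM and the surface receptor gene Cd160 at 606 and 717 CPM. The cytokine genes Il22 and Il17a stood at 34.5 and 86.0 CPM in library 1 and at 3.17 and 4.02 CPM in library 3, from 43 and 107 UMIs against 15 and 19.

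Over 35 points, each a class of at least 20 cells in 1 library, the genes whose level followed Ahr most closely were Mob1a, Supt4a, Stk4, Arid4a and Sh3bp1 (Pearson r of log2(CPM + 1) 0.934 to 0.875). For Nqo1 they included Rab17, Abat, Arl4d and Lad1 (0.934 to 0.925), for Arnt Mkln1, Rock1, Xpr1, Taok2 and Luc7l2 (0.904 to 0.858), and for Tiparp Akirin1, Tmem160, Gm5617, Ube2q1 and Sdf4 (0.849 to 0.791). For Cyp1a1 the best were weaker, Sult6b2, Rbp2, Papss2, Leap2 and Slc2a2 (0.649 to 0.624), genes of mature enterocytes whose enterocyte levels in libraries 3 and 4 were not near 0. Over 20 points of library and villus bin, Saa1, an acute-phase gene, was closest to Cyp1a1 (r 0.935), and its enterocyte levels were 16.6, 26.3, 0.384 and 0.745 CPM, in library order. With library 2 left out, 0 of the 5 genes closest to Cyp1a1 over villus bins, Saa1 among them, were the same, and with the other libraries left out in turn 1 to 3 were. These points share cells, libraries and depth, and the correlations are descriptions. With 1 library left out, between 1 and 5 of the 5 genes were the same for Ahr, Arnt, Cyp1a1, Tiparp and Nqo1 over classes. Ahrr had too few UMIs to be compared.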

How the data were processed

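The deposited matrix holds UMI counts for 32285 genes in 44277 barcodes of 4 libraries, as the authors' file gives them, whole numbers with no normalization. Per the submitters' processing notes, Cell Ranger 6.1.1 and mm10 were used; the sources used here do not give their roles, the barcode filter or the annotation. The barcode number matches no sample label, so the planned edgeR test between diets was not run.

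The 6 genes, the marker lists and the pathway lists were chosen with earlier results of these data known. Barcodes were kept from 500 UMIs and 250 genes upward if mitochondrial UMIs made up at most 25%, and classed by summed marker UMIs per 10000. The thresholds of the classes were set after the marker rates were seen, and 1175 of 19889 enterocyte or low-enterocyte cells lay within a factor of 1.5 of the enterocyte threshold. Doublets were treated by leaving out 316 cells that met the markers of more than 1 lineage, a number that also takes in any cells with fibroblast or endothelial markers. No doublet caller was used in the main values. Values were given for classes of at least 20 cells in a library. CPM has an exact Poisson and a share an exact Clopper-Pearson 95% interval, and beside 0 counts stands the level that 3 counts would give; all cover counting error only. Shares at equal depth came from 1 random draw of 2000 or 10000 UMIs per cell. Positive and negative cells were compared by summed UMIs, negative cells weighted to the positive cells' UMIs per bin, a step tested on simulated data. Genes were named by a fixed rule: the 6 genes, genes of the lists that reached 10 CPM in a class, the 5 genes most like each of the 6 with at least 100 UMIs, and the 5 highest and lowest in the comparison of positive with negative cells; some genes that the rule names are not reported here. Promoters came from RefSeq (GRCm38.p6). Work was done in Python 3.11.15 with Scanpy 1.11.5 and edgeR 4.0.16 (TMM factors). The alternatives are in the closing section.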

Additional observations from a re-analysis of the deposited data

Results flagged for a closer look

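Barcodes that failed the filter, most of them for mitochondrial UMIs, also held UMIs of these genes above the limit that a count of 0 allows. In libraries 1 to 4 they held 198, 96, 345 and 114 UMIs of Ahr, 369, 181, 404 and 210 of Arnt, 503, 341, 545 and 346 of Tiparp, and 183, 140, 354 and 241 of Nqo1. Cyp1a1 had 138 UMIs in library 1 and 59 in library 2, against 1 and 0 in libraries 3 and 4, which is 4.95, 3.19, 0.029 and 0 CPM. The order of the libraries for Cyp1a1 was thus the same outside the filter for the high and the low pair.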

How the results depend on the processing

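No paired analysis was possible because the barcode numbers of the libraries are not tied to the labelled replicates. Cyp1a1 in enterocyte-like cells kept its high and low libraries under all 9 alternatives: with thresholds doubled it stood at 10.5 and 8.42 CPM in libraries 1 and 2, with mitochondrial genes left out of the total at 11.2 and 8.45, with the highest Scrublet scores left out at 0 and 0.106 in libraries 3 and 4, and with at most 15% mitochondrial UMIs at 0.0921 in library 4. Ahr in enterocyte-like cells was 11.8 and 11.1 CPM in libraries 1 and 3 without mitochondrial genes. The share of cells with a Cyp1a1 UMI was highest in the middle bin of library 1 and lowest in the base bin of library 2 in all 12 alternatives, 1 of them, another random draw, added after the data were seen. Unthinned, the base and middle shares were 6.30% and 14.7% in library 1 and 3.90% and 8.22% in library 2, and the tip share of library 1 was 3.996%. At 5000 UMIs the base and middle shares of library 1 were 1.28% and 5.57% and the middle share of library 2 was 3.01%. The tip share of library 1 was 4.23% with at most 15% mitochondrial UMIs and 3.99% in 3 bins, its middle share 7.25% with at most 50%, and the base share of library 2 was 3.49% with thresholds doubled. In library 2 the tip was above the middle in all but the unthinned shares and the other draw (ratios 0.890 and 0.970).

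The lists of most similar genes were unstable. With a pseudocount of 10 CPM, 1 of 5 genes stayed for Ahr, 3 for Cyp1a1, 2 for Nqo1 and 3 for Cyp1a1 by villus bin; with no filter on low genes, 0 stayed for Cyp1a1 and 3 by villus bin. Leaving out each library in turn kept 3 to 5 of 5 for Ahr, 1 to 2 for Arnt, 2 to 3 for Cyp1a1, 1 to 2 for Tiparp, 1 to 4 for Nqo1 and 0 to 3 for Cyp1a1 by villus bin. Of 652 values of single genes by class, 35 moved over 1.5-fold, among them Nqo1 in goblet-like and stem-like cells. The cause was not tested.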
